A study of Homo sapiens with 8 samples.

Results

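The unfolded protein response genes described here are 10 of the 60664 genes in the deposited count tables, taken by symbol from a named list. They fall into 3 sensors in the membrane of the endoplasmic reticulum (ER), 3 other proteins with a membrane segment, 3 soluble effectors, and XBP1. The sensors are ERN1 (the kinase and RNase IRE1), EIF2AK3 (the kinase PERK) and ATF6. ATF6B, CREB3 and HERPUD1 form the second set, and ATF4, DDIT3 and PPP1R15B the third.

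The cells were HEK293T, an established human line of embryonic kidney origin, and carried APEX2, a modified peroxidase that attaches biotin to nearby RNA. Biotinylated RNA was collected on streptavidin beads and sequenced. The compared groups were nuclear APEX2 (NLS) with labelling, NLS control without labelling, APEX2 at the outer mitochondrial membrane (OMM) with labelling, and OMM control without labelling, with 2 libraries in each and 8 in all. Every group, controls included, came from cells carrying APEX2. Without labelling, the RNA in control libraries was not biotinylated by APEX2. A rise or fall below compares labelled with control libraries and is not a change of mRNA level in the cells. A stranded kit for total RNA was used at NLS (titled ribominus) and a stranded kit for mRNA at OMM (titled trizol), so that compartment and kit cannot be told apart. The sources differ on how captured RNA was released: the design text gives Proteinase K at NLS and TRIzol at OMM, and the sample protocols a column kit throughout. How APEX2 was introduced, and whether the cells were a clone, is not given in the sources used here. Nothing in the labels ties the libraries of a group to separate cultures; p-values thus rest on differences between libraries that may be technical alone.

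When misfolded proteins accumulate in the ER, IRE1 cuts the XBP1 mRNA at a pair of sites, and joining of the ends gives the reading frame of an active transcription factor. PERK phosphorylates the initiation factor eIF2, which lowers translation in general while that of ATF4 rises. ATF6 travels to the Golgi, where proteases release its cytoplasmic part as a transcription factor. The uncut XBP1 mRNA is held at the ER membrane through a hydrophobic stretch of the protein it is being translated into, whereas the mRNAs of the sensors reach the ER because the proteins enter the membrane.

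The stretch that IRE1 removes is shown because XBP1 is the member whose mRNA is itself the substrate at the ER surface. In GENCODE 29 transcripts it lies on chromosome 22 at chr22:28796127-28796152 (GRCh38, minus strand) and is present in 4 of 7 annotated XBP1 transcripts, in 3 of them within the coding sequence. Capitals mark the 26 bases between the cuts, which fall after the third base of CCGCAG and of CTGCAG, with 10 bases on each side in lower case:
XBP1: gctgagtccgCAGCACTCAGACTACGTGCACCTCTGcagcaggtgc
The deposited counts are totals per gene and do not separate cut from uncut XBP1 mRNA.

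Library totals ran from 8039176 to 9531568 counts in the labelled NLS libraries, from 20746393 to 21096586 in the NLS controls, from 34705126 to 52421161 in the labelled OMM libraries and from 35165227 to 41660431 in the OMM controls. Libraries of a group differed more at OMM than at NLS. The biological coefficient of variation, the spread between libraries beyond counting error, was 0.958 at OMM and 0.166 at NLS. Of 9 genes that HEK293T cells were taken to express, among them VIM and KRT18, 7 to 9 had counts in every library. PAX2 and LHX1, of the renal lineage, were at 0 in labelled OMM library 3 and OMM control library 4. The 8 markers of other cell types summed to 5.59 to 8.10 CPM in the labelled NLS libraries, 7.81 to 12.03 CPM in the NLS controls, 1.57 to 4.51 CPM in the labelled OMM libraries and 12.98 to 26.4 CPM in the OMM controls. Among them PTPRC, CD3E, ALB, HBB, PECAM1 and KRT5 were at 0 in all 4 OMM libraries, while COL1A1 had counts in each. At NLS 4 to 7 of the 8 had counts in a library.

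In the nucleus, XBP1, ATF4, CREB3 and PPP1R15B were lower and ERN1 was higher in labelled than in control libraries. Values are CPM, counts divided by the library total scaled with TMM factors, with the SD over 2 libraries, and a call is an adjusted p under 0.05 in edgeR's quasi-likelihood test. All 10 members passed the filter on low counts. Of the 10, 1 was called higher and 4 lower, while 57.3% of the 20858 genes tested were called, 28.8% higher and 28.5% lower. All members are protein-coding, and of the 13856 protein-coding genes tested 19.4% were higher and 39.8% lower, so that the members' counts lie near that background. The median log2 fold change was -0.30 over the members, -0.26 over protein-coding genes and 0.14 over all genes tested. At an unadjusted p under 0.05 there were 7 members, against 62.6% of all genes, and DESeq2 called 1 higher and 4 lower, against 52.6% of all genes in either direction. In bulk libraries of this kind, a smaller share of a transcript in the nucleus and a larger share of other RNA in the same library cannot be told apart.

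**Figure D1:**
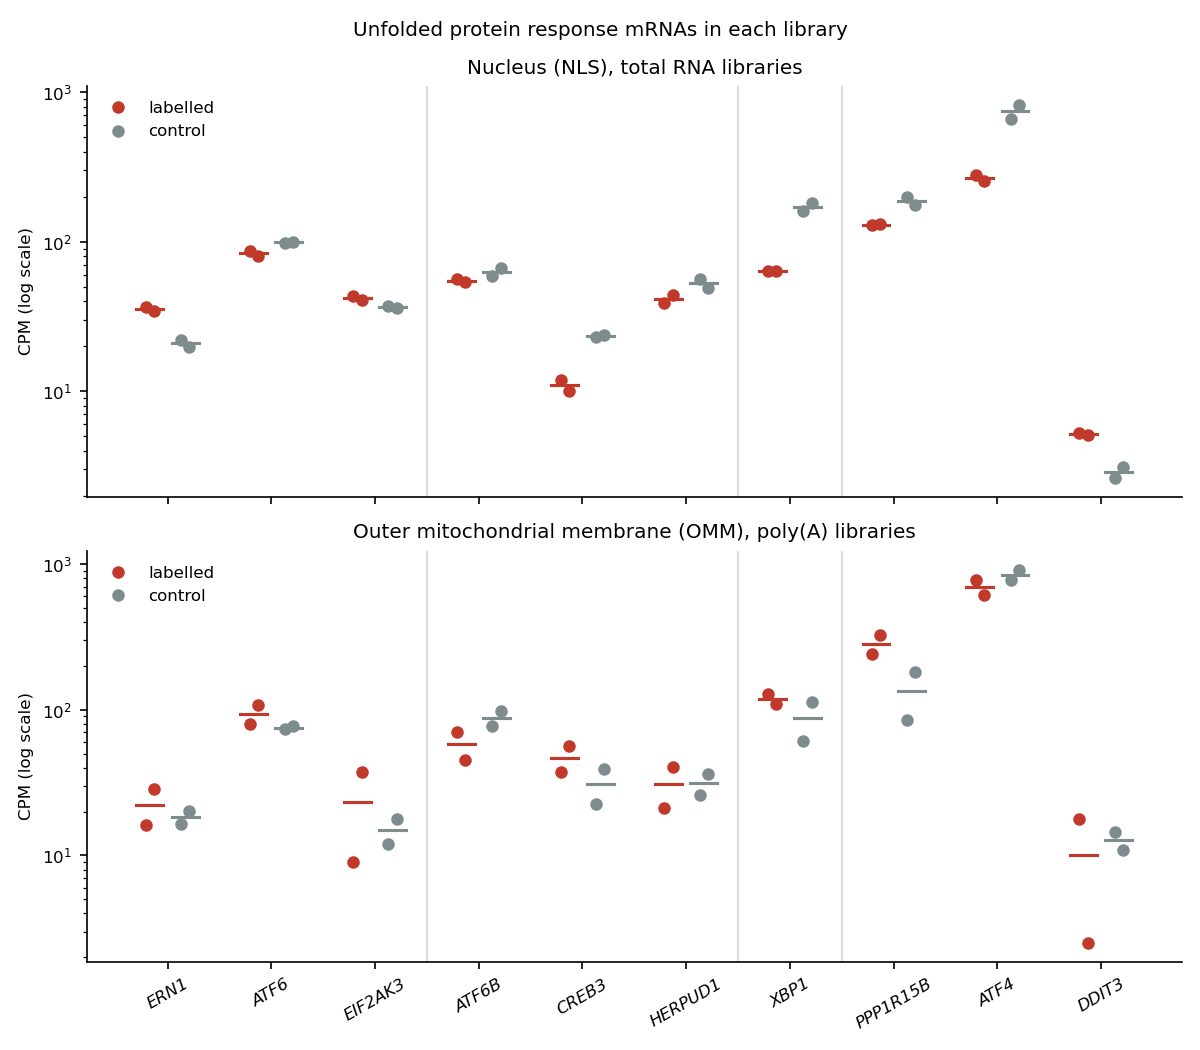
Level of each member in every library, in CPM on a log axis, with labelled libraries in red left of control libraries in grey. Points are libraries and bars the mean of 2. The upper panel holds the NLS and the lower panel the OMM libraries. Labelled and control libraries are apart for all 10 members at NLS and for 4 of 10 at OMM. The share of all genes that lie apart in this way is not given here, so these counts are not a result about the members.

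XBP1 (ENSG00000100219, chr22:28794555-28800597, minus strand, GRCh38 as for all loci here) encodes the transcription factor that induces chaperones, translocation and degradation factors of the ER. Its level was 64.0 and 63.8 CPM in the labelled NLS libraries, against 159 and 182 CPM in the NLS controls. The labelled libraries lay close together and far under both controls. The mean was 63.9 ± 0.111 CPM in labelled libraries and 171 ± 16.0 CPM in controls (SD, n = 2 each). XBP1 fell 2.67-fold, a log2 fold change of -1.42 ± 0.11 (SE, edgeR adjusted p = 3.34e-05).

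ATF4 (ENSG00000128272, chr22:39519695-39522685, plus strand), the transcription factor translated when eIF2 is phosphorylated, was the most abundant member in every library. It had 279 and 254 CPM in the labelled NLS libraries, against 663 and 826 CPM in the NLS controls. The groups did not overlap, and ATF4 fell 2.79-fold (log2 fold change -1.48 ± 0.13, edgeR adjusted p = 5.72e-05). Its change differed from that of XBP1 by less than the SE of either. Relative to each other the pair hardly moved: there were 435 and 398 ATF4 counts per 100 XBP1 counts in the labelled NLS libraries, and 416 and 454 in the NLS controls.

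PPP1R15B (ENSG00000158615, chr1:204403387-204411791, minus strand) encodes the constitutive subunit that directs protein phosphatase 1 to phosphorylated eIF2. It stood at 129 and 130 CPM in the labelled NLS libraries and at 200 and 176 CPM in the NLS controls, and fell 1.45-fold (log2 fold change -0.53 ± 0.10, edgeR adjusted p = 0.00258). DDIT3 (ENSG00000175197, chr12:57516588-57521737, minus strand), the stress-induced factor CHOP, was the scarcest member at NLS by CPM, with 60 and 49 counts in the labelled NLS libraries and 46 and 54 counts in the NLS controls. Scaled to depth these were 5.28 and 5.07 CPM in labelled libraries, against 2.62 and 3.10 CPM in controls. The groups did not overlap, yet the log2 fold change of 0.86 ± 0.39 was not called (edgeR adjusted p = 0.0942). Of DDIT3's exon bases 27.2% are shared with a gene on the opposite strand, MARS, and the strand setting of the counting is not given in the sources used here, so its reads are uncertain.

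Of the sensors, ERN1 (ENSG00000178607, chr17:64039142-64130819, minus strand) was called. Its level was 36.4 and 34.2 CPM in the labelled NLS libraries, against 22.1 and 19.9 CPM in the NLS controls, a rise of 1.69-fold (log2 fold change 0.76 ± 0.15, edgeR adjusted p = 0.00374). EIF2AK3 (ENSG00000172071, chr2:88556741-88627576, minus strand) had 43.4 and 40.9 CPM in the labelled NLS libraries and 37.1 and 36.2 CPM in the NLS controls. Its log2 fold change of 0.20 ± 0.13 was not called (edgeR adjusted p = 0.204), and 14.4% of its exon bases overlap an antisense gene. ATF6 (ENSG00000118217, chr1:161766294-161964070, plus strand) gave 86.4 and 80.6 CPM in the labelled NLS libraries, against 98.1 and 100.2 CPM in the NLS controls. Its log2 fold change of -0.25 ± 0.10 was not called (edgeR adjusted p = 0.0689). The 3 sensors lay on both sides of 0.

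Among the other membrane proteins, CREB3 (ENSG00000107175, chr9:35732335-35737004, plus strand), a transcription factor released from the membrane by the same kind of cleavage as ATF6, had 11.8 and 10.0 CPM in the labelled NLS libraries and 23.2 and 23.7 CPM in the NLS controls. Labelled libraries held less than either control, and CREB3 fell 2.14-fold (log2 fold change -1.10 ± 0.19, edgeR adjusted p = 0.00179). Opposite-strand genes, GBA2 and TLN1, share 7.30% and 3.21% of its exon bases. ATF6B (ENSG00000213676, chr6:32115264-32128253, minus strand), the paralogue of ATF6, had 56.0 and 53.7 CPM in labelled libraries and 59.2 and 66.9 CPM in controls (log2 fold change -0.20 ± 0.12, edgeR adjusted p = 0.186). HERPUD1 (ENSG00000051108, chr16:56932048-56944863, plus strand), a membrane protein of ER-associated degradation, had 39.1 and 44.0 CPM in labelled libraries and 56.5 and 49.3 CPM in controls (log2 fold change -0.35 ± 0.14, edgeR adjusted p = 0.0568). Of the 6 members with a membrane segment, sensors included, 1 was called higher, 1 lower and 4 were not called. Of the protein-coding genes tested, 19.4% were higher and 39.8% lower. Counts this small are not a result about the membrane segment.

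The median log2 fold change was 0.20 for the 3 sensors and -0.53 for the 3 soluble effectors, a difference of 0.74 that is given without a test. The SD of the same measure from the spread between libraries was 0.124, which does not cover the spread between genes. The effector median is that of PPP1R15B, between ATF4 and DDIT3. The effectors ran from -1.48 to 0.86 and so enclosed the sensors, which ran from -0.25 to 0.76. The classes are thus not apart. With library size alone in place of TMM factors the median of all genes rose by 0.52, 5 members were called higher and 3 lower, and ATF6 (0.27), ATF6B (0.32) and HERPUD1 (0.17) turned positive. Under that scaling 9122 of 20858 genes were higher and 3351 lower. The fall of PPP1R15B was then not called (log2 fold change -0.01, edgeR adjusted p = 0.910). When the spread was estimated jointly with the OMM libraries, XBP1 and ATF4 stayed called and ERN1 (edgeR adjusted p = 0.273), CREB3 (0.109) and PPP1R15B (0.385) did not. That fit called 212 of 23178 genes higher and 2180 lower.

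Ratios between members of the same library do not depend on that scaling. In the labelled NLS libraries there were 56.9 and 53.6 ERN1 counts per 100 XBP1 counts, against 13.9 and 10.9 in the NLS controls. ATF6 gave 135 and 126 counts per 100 XBP1 counts in labelled libraries and 61.6 and 55.0 in controls. EIF2AK3 gave 67.8 and 64.0 in labelled libraries and 23.3 and 19.9 in controls. Each sensor was more abundant relative to XBP1 in both labelled NLS libraries than in either control, and so was every other member except ATF4. XBP1 itself had an NLS log2 fold change of -1.42, and of the members only ATF4 was lower, at -1.48. The direction of these ratios thus repeats the fold changes above and is no separate result. Of the soluble effectors, PPP1R15B gave 202 and 204 counts per 100 XBP1 counts in labelled libraries and 125 and 96.9 in controls. DDIT3 gave 8.25 and 7.94 in labelled libraries and 1.65 and 1.70 in controls. Of the other membrane proteins, ATF6B gave 87.5 and 84.1 in labelled libraries and 37.2 and 36.8 in controls. HERPUD1 gave 61.1 and 68.9 in labelled libraries and 35.5 and 27.1 in controls. CREB3 gave 18.4 and 15.7 in labelled libraries and 14.6 and 13.02 in controls. The higher ratio at NLS is thus not particular to the sensors. Summed, the 3 sensors amounted to 260 and 244 counts per 100 XBP1 counts with labelling and to 98.7 and 85.8 without. At OMM the same sum was 81.5 and 158 in the labelled libraries and 166 and 102 in the controls, and the groups overlapped.

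**Figure D2:**
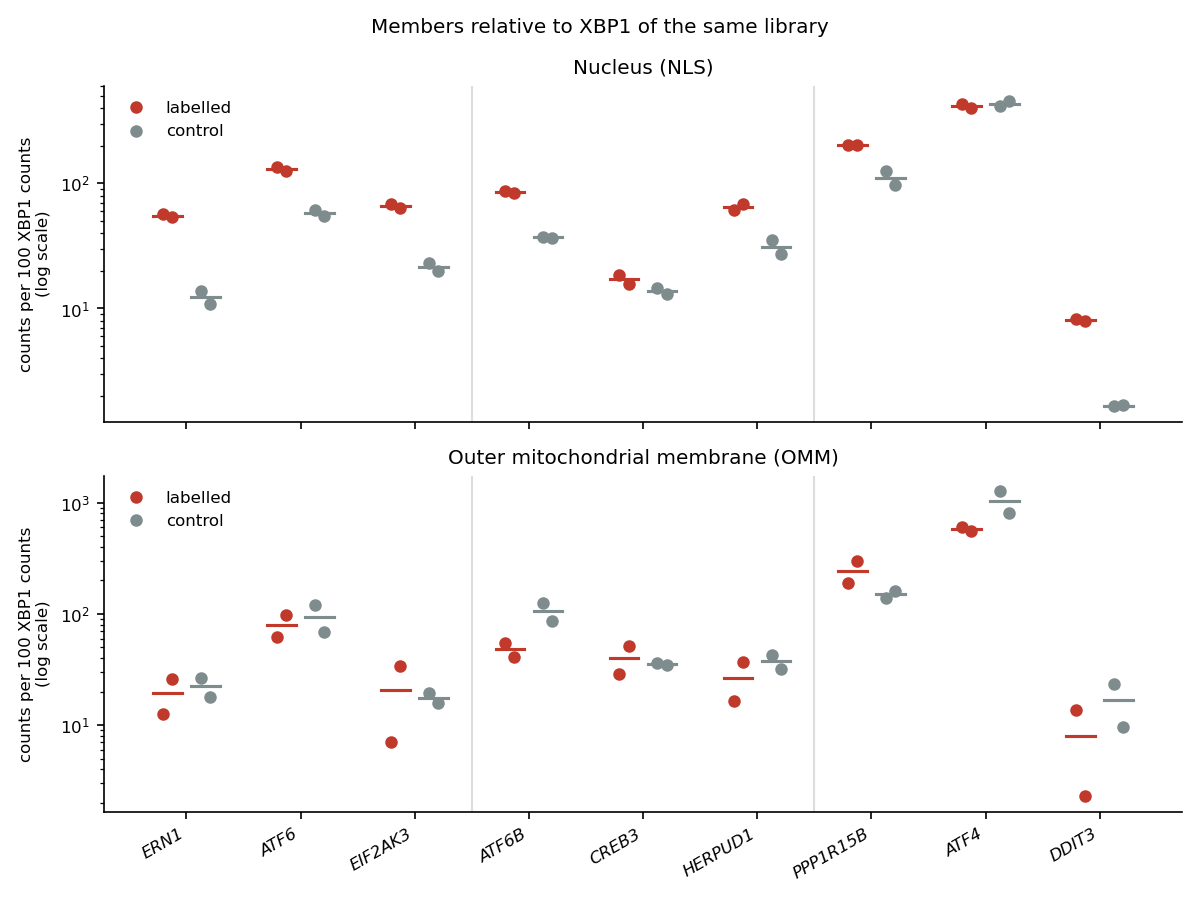
Counts of the other 9 members per 100 XBP1 counts of the same library (log axes), at NLS above and OMM below. Points are libraries and bars the mean of 2, with labelled libraries in red left of controls in grey. At NLS the labelled libraries lie above the controls for 8 of 9 members, all but ATF4. Each of these 8 had a higher NLS log2 fold change than XBP1. At OMM the labelled libraries lie above for PPP1R15B, below for ATF6B and ATF4, and overlap for the other 6.

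Gene length ran along with these classes. From start to end, the sensors span 70.8 to 198 kb of the genome, and the other 7 members 2.99 to 12.99 kb. Over 13856 protein-coding genes, the NLS log2 fold change and this length had a Spearman correlation of 0.228, given as a description across genes of the same libraries. The 2891 protein-coding genes as long as the sensors had a median log2 fold change of -0.14 (quartiles -0.68 and 0.44), and the 2778 as short as the other members had a median of -0.57 (quartiles -1.24 and 0.28). ERN1, at 0.76, lay above the upper quartile of genes of its length, and EIF2AK3 and ATF6 lay between the quartiles. XBP1 and ATF4 lay under the lower quartile of theirs, DDIT3, at 0.86, lay above the upper one, and the other 4 short members lay between the quartiles. The part of gene length in the contrast between sensors and effectors was not tested.

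**Figure D3:**
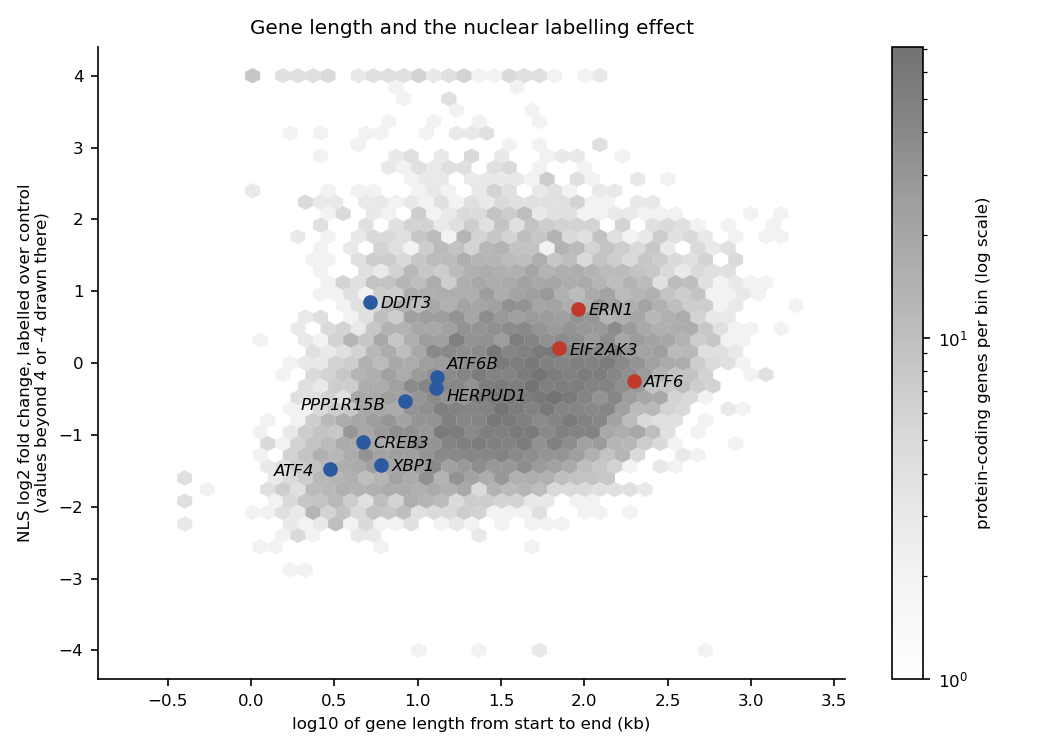
NLS log2 fold change, labelled over control, against the log10 of gene length from start to end in kb. Grey bins are 13856 protein-coding genes, shaded by their number on a log scale; red points are the 3 sensors and blue points the other members. The sensors lie at the long end and XBP1, ATF4 and CREB3 at the lower left.

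At the outer mitochondrial membrane none of the 10 members passed the test, against 0.194% of 14438 genes tested. At an unadjusted p under 0.05 there was 1 member, PPP1R15B, and DESeq2 on the same genes also called 1, again PPP1R15B. Over all genes these rules called 10.6% and 12.7%, so that 1 of 10 lies near the background. Labelled libraries lay above both controls for 2 members, ATF6 and PPP1R15B, below both for ATF4 and ATF6B, and overlapped them for 6. These counts lack the share of all genes that lie apart and are a description alone. The median log2 fold change was 0.30 over the members and 0.00 over all genes tested.

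PPP1R15B had 242 and 326 CPM in the labelled OMM libraries, against 84.5 and 182 CPM in the OMM controls. The controls differed widely from each other, and the log2 fold change of 1.09 ± 0.37 was not called (edgeR adjusted p = 0.331). In DESeq2 on the filtered genes its adjusted p was 0.0307, and the p in the authors' deposited table was 0.238. Without OMM control library 4 or without labelled library 2 edgeR called it, with log2 fold changes of 1.75 and 1.29.

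XBP1 had 129 and 110 CPM in the labelled OMM libraries, against 61.4 and 113 CPM in the OMM controls. The groups overlapped, since control library 4 exceeded labelled library 3, and the log2 fold change of 0.46 ± 0.35 was not called (edgeR adjusted p = 0.744). Relative to ATF4 in the same library, XBP1 stood at 16.6 and 18.0 counts per 100 ATF4 counts with labelling and at 7.89 and 12.3 without. These groups did not overlap. By the same ratio ATF6, CREB3 and PPP1R15B also lay above both OMM controls and ATF6B lay below both. For ERN1, EIF2AK3, HERPUD1 and DDIT3 the groups overlapped. The separation is thus not particular to XBP1, and ATF4 by CPM lay below both OMM controls. ATF4 itself had 777 and 610 CPM in labelled libraries and 779 and 915 CPM in controls (log2 fold change -0.29 ± 0.20, edgeR adjusted p = 0.688).

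The sensors gave wide spreads at this site. ATF6 had 79.9 and 107 CPM in the labelled OMM libraries and 73.6 and 76.9 CPM in the OMM controls (log2 fold change 0.31 ± 0.31, edgeR adjusted p = 0.851). ERN1 had 16.1 and 28.5 CPM in labelled libraries and 16.4 and 20.3 CPM in controls (log2 fold change 0.28 ± 0.62, edgeR adjusted p = 0.971). For EIF2AK3 the labelled libraries lay on either side of the controls, at 9.00 and 37.5 CPM in labelled libraries and 11.9 and 17.7 CPM in controls (log2 fold change 0.65 ± 0.79, edgeR adjusted p = 0.910). Labelled library 3 was the high value for all 3, and without it ERN1 and EIF2AK3 turned negative, at -0.18 and -0.71.

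CREB3 had 37.4 and 55.9 CPM in the labelled OMM libraries and 22.4 and 39.4 CPM in the controls (log2 fold change 0.59 ± 0.49, edgeR adjusted p = 0.773). ATF6B had 70.5 and 45.1 CPM in labelled libraries and 77.7 and 97.9 CPM in controls (log2 fold change -0.60 ± 0.36, edgeR adjusted p = 0.608). HERPUD1 had 21.1 and 40.7 CPM in labelled libraries, which bracketed the 26.1 and 36.2 CPM of the controls (log2 fold change -0.01 ± 0.53, edgeR adjusted p = 0.999). DDIT3 had 17.7 and 2.50 CPM in labelled libraries and 14.5 and 10.9 CPM in controls, and the labelled libraries lay on both sides of the controls (log2 fold change -0.33 ± 1.14, edgeR adjusted p = 0.991). The difference between the sensor and effector medians was 0.60, against an SD of 0.798 from the spread between libraries, and it was -0.66 without labelled library 3.

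**Figure D4:**
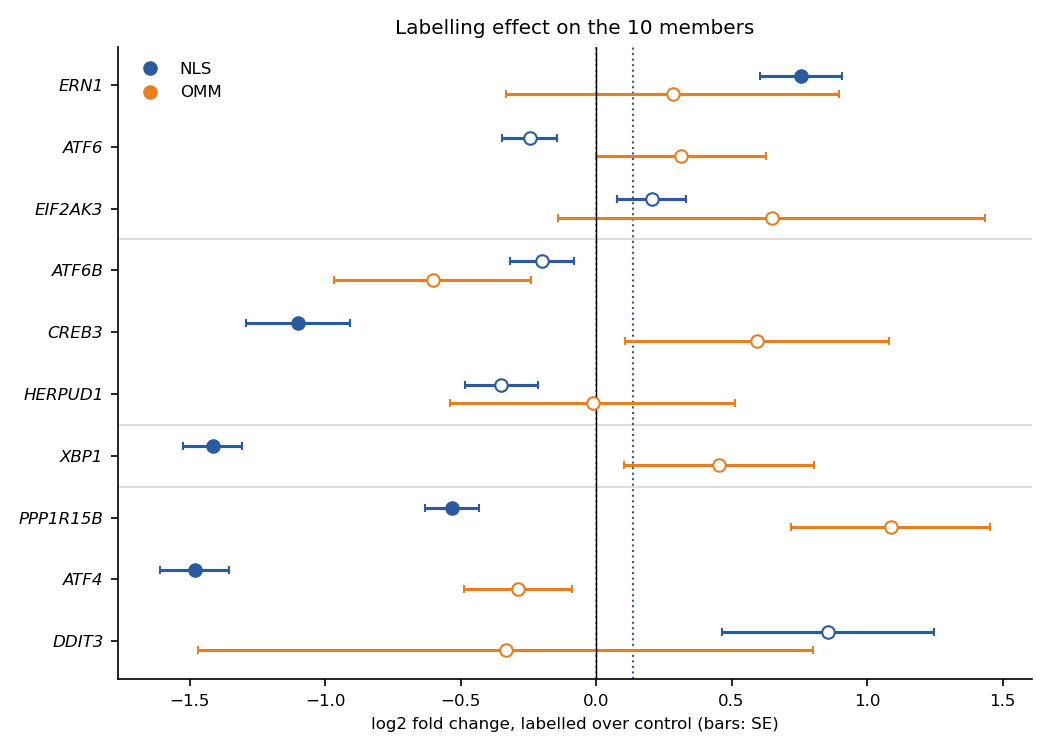
Log2 fold change of labelled over control for each member at NLS (blue) and OMM (orange), with bars of 1 SE. Filled points passed an adjusted p of 0.05 and open points did not; dotted lines are the medians of all genes tested, 0.14 at NLS and 0.00 at OMM. The bars at OMM are wider, and no OMM point is filled.

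The difference between the labelling effects, OMM minus NLS, was tested in a joint fit of the 8 libraries, in which 8.14% of 23178 genes were called. Of the 10 members 2 were called, both higher: XBP1, by 1.90 ± 0.39 on the log2 scale (edgeR adjusted p = 0.0358), and ATF4, by 1.22 ± 0.25 (edgeR adjusted p = 0.0343). Over its alternatives the adjusted p ran from 0.000389 to 0.203 for XBP1 and from 0.000912 to 0.198 for ATF4, and the direction held in each. Neither was called with RLE factors or with library size alone, which lowered the median of all genes by 0.41 and 0.47, nor without labelled OMM library 2 or any single NLS library, and ATF4 was not called without OMM control library 3 either. Without either NLS control, 0 genes were called in all. CREB3 (1.72 ± 0.51, edgeR adjusted p = 0.101) and PPP1R15B (1.65 ± 0.48, edgeR adjusted p = 0.0961) had differences of like size that were not called. For the sensors the differences were -0.45 ± 0.52 for ERN1, 0.58 ± 0.25 for ATF6 and 0.46 ± 0.86 for EIF2AK3, and none was called. The values of the other members were -0.38 ± 0.36 for ATF6B, 0.36 ± 0.49 for HERPUD1 and -1.16 ± 1.40 for DDIT3. Since the compartments used different kits, and may have differed in how RNA was released, the compartment's part in these differences cannot be told apart from that of either.

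Per kilobase of annotated exon, which allows levels of different genes to be set side by side, ATF4 led in all 4 groups and ERN1 was last. In the labelled NLS libraries ATF4 averaged 106 ± 6.92 CPM per kb, followed by PPP1R15B at 24.9 ± 0.157, XBP1 at 21.1 ± 0.0367, ATF6B at 15.1 ± 0.445 and ATF6 at 10.6 ± 0.524 (SD, n = 2 each). HERPUD1, at 8.06 ± 0.671, and EIF2AK3, at 7.75 ± 0.329, overlapped, and below them CREB3, DDIT3 and ERN1 were apart, ERN1 at 3.25 ± 0.143 CPM per kb. In the NLS controls XBP1, at 56.4 ± 5.30 CPM per kb, stood above PPP1R15B at 36.0 ± 3.16, so the pair had the opposite order there. ERN1 averaged 1.93 ± 0.144 CPM per kb in those controls and overlapped DDIT3 at 2.19 ± 0.258. In the labelled OMM libraries PPP1R15B was again above XBP1, at 54.3 ± 11.3 against 39.4 ± 4.46 CPM per kb, while the members from ATF6B down to ERN1 overlapped from neighbour to neighbour. In the OMM controls XBP1, PPP1R15B and ATF6B overlapped as neighbours, at 28.7 ± 12.0, 25.5 ± 13.3 and 24.2 ± 3.93 CPM per kb.

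Other genes of the response were grouped by their known roles. In the nucleus the targets of ATF6 and XBP1 in the ER fell most: 33 of 39 tested were lower and 0 higher, with a median log2 fold change of -1.17, against 39.8% and 19.4% of the protein-coding genes tested, with a median of -0.26, and 28.5% and 28.8% of all genes. Under scaling by library size alone 26 were lower and 2 higher, and with the joint fit 20 lower and 0 higher. Over all genes, library size alone gave 3351 lower and 9122 higher of 20858, and the joint fit 2180 and 212 of 23178. Counts of the other lists at NLS under these settings are to be read against the same totals. By edgeR 0 of the 39 were higher at an unadjusted p under 0.05 as well, and DESeq2 gave 33 lower and 0 higher. Of the protein-coding genes, 42% were lower and 21.7% higher at an unadjusted p under 0.05 in edgeR. DESeq2 called 35.6% of them lower and 18.2% higher. Counts of the other lists at NLS by these rules are to be read against these protein-coding shares. The ER target list holds XBP1 and HERPUD1. HSPA5, the chaperone BiP, and SPCS1, of signal peptidase, had the lowest changes at -2.04 ± 0.11 and -2.03 ± 0.12. DERL2, a channel protein of ER-associated degradation, and SEC31A, a coat subunit of vesicles leaving the ER, had the smallest falls among those called, at -0.58 ± 0.14 and -0.40 ± 0.09.

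A shared promoter sequence, the ER stress response element, is known to recruit ATF6 with the factor NF-Y. It was searched as CCAAT and CCACG with 9 bases between them, on both strands, from 250 bases before to 50 after each start in the RefSeq promoter table (GRCh38.p14). The letters were found in 27 of 35116 promoters, 0.0769%, and in 9 of 44 promoters of the ER target list, 20.5%. Those 9 belong to 7 of the 32 genes of that list that the table holds, XBP1 among them. The list was made of known targets of ATF6 and XBP1, so its share is no independent result. Of the 10 members, all in the table, 1 held it, XBP1. The matches of XBP1, of HSPA5 and PDIA6, which are folding factors, and of the chaperone CANX are shown, with the fixed letters in capitals:
XBP1: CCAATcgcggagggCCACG
HSPA5: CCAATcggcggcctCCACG
PDIA6: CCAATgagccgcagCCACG
CANX: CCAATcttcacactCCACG
They lie at chr22:28800603-28800621 (minus strand), chr9:125241391-125241409 (minus strand), chr2:10812853-10812871 (minus strand) and chr5:179698778-179698796 (plus strand). The match of XBP1 starts 52 bases before the transcription start. A shorter element bound by ATF4, searched as TGATGNAAT in the same window, was found in 0.991% of all promoters and in none of the 10 members. Sites outside that window were not searched. A match is a run of letters and does not show binding.

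The targets of ATF4 and DDIT3, which act in amino acid supply and stress, had 28 of 37 tested lower and 0 higher in the nucleus, with a median of -0.71. Of the protein-coding genes tested, 39.8% were lower and 19.4% higher, with a median of -0.26. At an unadjusted p under 0.05, 1 of the 37 was higher, and DESeq2 called 27 lower and 0 higher. With library size alone 14 were lower and 5 higher, and with the joint fit 12 lower and 0 higher. EPRS1, an aminoacyl-tRNA synthetase, and MAP1LC3B, of autophagosomes, had the lowest changes at -1.81 ± 0.11 and -1.70 ± 0.11. SQSTM1, an autophagy receptor, and AARS1, the alanyl-tRNA synthetase, had the smallest falls called, at -0.40 ± 0.13 and -0.35 ± 0.13. The list holds the member DDIT3. NUPR1, FGF21 and GDF15 did not pass the filter.

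Genes of eIF2 signalling had 13 of 16 lower and 0 higher in the nucleus, a median of -0.96, with DESeq2 at 12 and 0 and none higher at an unadjusted p under 0.05. The calls of this and the next lists stand beside 39.8% lower and 19.4% higher among protein-coding genes. The catalytic phosphatase subunits PPP1CA and PPP1CB had the lowest values, -1.87 ± 0.12 and -1.60 ± 0.11. EIF2AK4, the kinase that senses amino acid shortage, was at -0.46 ± 0.10 and EIF2B5, a subunit of the exchange factor of eIF2, at -0.48 ± 0.12. Of 8 genes that process or bind the sensors or act in XBP1 splicing, 6 were lower and 0 higher, also by DESeq2. None was higher at an unadjusted p under 0.05 in edgeR. TMBIM6, an ER membrane protein that binds IRE1, was at -1.74 ± 0.09, and DDX1, a helicase of the RNA ligase complex, at -1.11 ± 0.10. FAM98B, of the same complex, was at -0.58 ± 0.11 and MBTPS2, a protease that releases ATF6, at -0.64 ± 0.11. Among 3 tested relatives of CREB3 and ATF6, CREB3L2 was lower, at -0.42 ± 0.09. Among 4 other transcription factors made as membrane proteins 2 were lower, NFE2L1 at -0.69 ± 0.10 and SREBF2 at -0.57 ± 0.12. The counts of both small lists, 1 of 3 and 2 of 4, lie near the protein-coding share and are no result about these lists. With library size alone the eIF2 list had 9 lower and 1 higher and the processing list 4 and 2. The CREB3 relatives then had 0 lower and 1 higher and the other factors 0 lower and 2 higher, and their medians turned positive, at 0.10 and 0.37. With the joint fit the eIF2 list had 10 lower, the processing list 3, and both small lists 0, with 0 higher in all 4.

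At OMM 2 of the 39 ER targets were called, both higher, and 0 lower, against 0.139% and 0.0554% of all genes tested; the list median was 0.42. At an unadjusted p under 0.05, 12 were higher and 0 lower, against 5.94% and 4.62% of all genes, and DESeq2 called 11 and 0, against 6.57% and 6.15%. The counts below by these rules are to be read against the same shares. SPCS3, a subunit of signal peptidase, had 633 and 615 CPM in the labelled OMM libraries, against 167 and 163 CPM in the OMM controls (log2 fold change 1.92 ± 0.19, edgeR adjusted p = 0.0218). The other was CANX, at 1.82 ± 0.20 (edgeR adjusted p = 0.0316). The 2 calls became 0 without robust estimation, 5 without OMM control library 3, 5 without control library 4, 4 (with 1 lower) without labelled library 2 and 8 (with 1 lower) without labelled library 3. Of the 37 ATF4 and DDIT3 targets 0 were called at OMM, with 5 higher and 3 lower at an unadjusted p under 0.05 and likewise in DESeq2. Of the 16 eIF2 genes 0 were called, with 3 higher and 1 lower unadjusted and 4 and 1 in DESeq2. The 8 processing genes gave 0 calls, with 3 and 2 both unadjusted and in DESeq2. The list of other membrane-bound factors had 0 calls and 1 higher by either measure, and the CREB3 relatives had 0 by all 3. VLDLR, a lipoprotein receptor in the ATF4 list, had 1214 and 82 counts in the labelled OMM libraries and 0 in both OMM controls, at least 155-fold higher against a floor of 3 counts in each control library. The bound rests on labelled library 2: it was 27-fold without that library and 283-fold without labelled library 3.

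In the difference between compartments 21 of the 39 ER targets were called higher at OMM than at NLS and 0 lower, against 10.5% and 1.49% of the protein-coding genes and 6.73% and 1.41% of all genes tested. At an unadjusted p under 0.05 the share of all genes in either direction was 23.1%. That balance depended on the method: DESeq2 called 23.8% of the genes it tested, 2162 higher and 2400 lower, RLE factors gave 626 higher and 372 lower, and library size alone 584 and 381. The counts were 9 of 37 ATF4 and DDIT3 targets, 8 of 16 eIF2 genes, 2 of 8 processing genes and 1 of 4 other membrane-bound factors, all higher. By edgeR, 0 of the ER list, the ATF4 list and the eIF2 list were lower at an unadjusted p under 0.05 and 1 each of the other pair, while DESeq2 called 1 of the ATF4 list and 1 each of that pair lower. With library size alone the ER count was 11, the eIF2 count 4 and the ATF4 count 6, and with RLE factors 12, 5 and 6. Without labelled NLS library 1 they were 10, 4 and 3, without labelled NLS library 3 they were 9, 3 and 2, and without either NLS control no list had a call. The 3 CREB3 relatives had 0 calls, with 1 higher unadjusted and 0 in DESeq2.

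**Figure D5:**
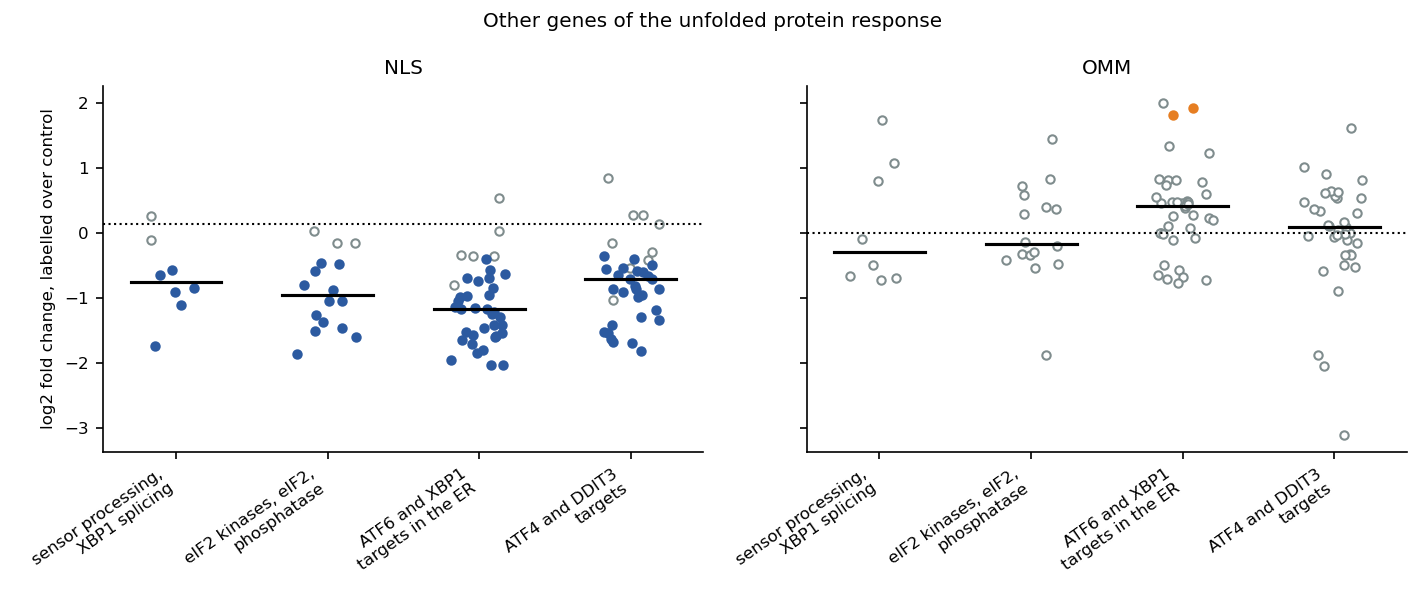
Log2 fold change of labelled over control for genes of 4 lists at NLS (left) and OMM (right), filled where the adjusted p was under 0.05. Bars are list medians and dotted lines the median of all genes tested; VLDLR at OMM, with controls at 0, is left out. The ER targets have medians of -1.17 at NLS and 0.42 at OMM.

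The genes most like a member were found by the distance between their log2 CPM over the 8 libraries, centred within each compartment, among 7966 genes whose mean log2 CPM reached 4 in both. For XBP1 these were CD276, PLPBP and SLC35F1, at distances of 0.27, 0.34 and 0.34. For ERN1 they were KMT2C, VPS13D and ZNF398, at 0.21, 0.30 and 0.32. For ATF4 they were CCT3 and CCT5, subunits of the cytosolic chaperonin, and PSMD2, of the proteasome, at 0.14, 0.20 and 0.22.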

How the data were processed

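The authors deposited whole-number read counts per gene for 8 libraries, made with HTSeq after STAR alignment to GRCh38.p13, per the submitters' processing notes; the sources used here give neither versions nor the strand setting. A log2 fold change and a p-value for each gene were deposited by the authors too. Columns were assigned to a group by the compartment and arm in their names, since their numbers differ from those in the titles; libraries are named by the column numbers. A further 6 columns matched no sample and were not used. Members and lists were chosen with earlier results of these data known.

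Differences were tested on the counts in R 4.3.3 with edgeR 4.0.16 (robust quasi-likelihood F test, TMM factors, filterByExpr with a minimum count of 10, prior count 0.125, two-sided, Benjamini-Hochberg adjustment over all genes tested, threshold 0.05), NLS and OMM apart and the difference in a joint fit. The SE is the size of the fold change over the square root of F. The procedure was tested on simulated data. DESeq2 1.42.0, other scaling, no filter, a replicate block and leaving out each library were alternatives. Coordinates and exon lengths come from GENCODE 29 (GRCh38), in which 58396 of the 60664 identifiers were found. Floors of 3 counts correspond to 0.264 to 0.310 CPM in the labelled NLS libraries, 0.171 to 0.172 in the NLS controls, 0.0566 to 0.0826 in the labelled OMM libraries and 0.0770 to 0.0846 in the OMM controls, and cover counting error only. Libraries of a group differed by more than sampling noise (chi-square per degree of freedom 4.98 to 229). Named were all members; from each other list, genes called at OMM or in the difference, and the 2 highest and 2 lowest called at NLS whose mean log2 CPM reached 4; and the 3 genes nearest XBP1, ERN1 and ATF4.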

Additional observations from a re-analysis of the deposited data

Results flagged for a closer look

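Among the members and the other lists, a tested difference between the labelling effects at OMM and NLS marked 41 genes, with VLDLR left out. All 41 had a more positive log2 fold change at OMM. Examined were the 10 members and lists of 39, 37, 16, 8, 4 and 3 tested genes, in which XBP1, HERPUD1 and DDIT3 recur. Over all 23178 genes tested, 1561 were called higher at OMM and 326 lower. Of the protein-coding genes tested, 10.5% were higher and 1.49% lower. The balance over all genes depended on the method, since DESeq2 called 2162 higher and 2400 lower. Compartment and library kit cannot be told apart. The values are differences of log2 fold changes, OMM minus NLS, from edgeR's joint fit. Members were 2 of the 41 marked genes, XBP1 (1.90) and ATF4 (1.22).

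Of the genes that process or bind the sensors or act in XBP1 splicing, MBTPS2 differed by 2.40 and TMBIM6, which binds IRE1, by 2.84. Of the genes of eIF2 signalling, the kinases EIF2AK1 and EIF2AK2 differed by 1.78 and 1.40, the eIF2 subunits EIF2S1 and EIF2S3 by 0.92 and 1.63, the phosphatase subunits PPP1CA, PPP1CB and PPP1CC by 1.43, 3.07 and 1.92, and the PERK inhibitor DNAJC3 by 2.12.

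Among the ATF6 and XBP1 targets, the ER chaperones HSPA5, HSP90B1, CALR, CANX and HYOU1 differed by 2.86, 1.60, 2.34, 3.43 and 2.01. The disulfide enzymes and the co-chaperone of that class, PDIA3, PDIA4, PDIA6 and DNAJC10, differed by 2.79, 1.76, 2.21 and 1.48. For the degradation factors SEL1L and OS9 the values were 2.88 and 1.56. Translocation and signal peptide factors were SEC61A1 (2.42), SSR1 (2.51), SSR3 (2.32), SRPRA (1.15), SRPRB (1.30), SPCS1 (2.05) and SPCS3 (3.48). The trafficking genes KDELR2 and SEC31A differed by 2.15 and 0.84.

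Among the ATF4 and DDIT3 targets, the serine pathway genes PSAT1 and SHMT2 differed by 1.44 and 1.11, and the amino acid transporters SLC7A11, SLC7A5 and SLC7A1 by 2.13, 2.14 and 1.39. ERO1A, EPRS1 and MAP1LC3B differed by 2.52, 1.82 and 1.70. VLDLR was also called, but its OMM controls were at 0 and no value is given for its difference. Of the other transcription factors made as membrane proteins, NFE2L1 differed by 1.64.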

How the results depend on the processing

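Of the NLS calls, 1 higher and 4 lower, RLE factors, DESeq2, no filter and no robust estimation gave the same counts. The joint fit gave 0 higher and 2 lower. With library size alone 5 were higher, and ATF6 (0.27), ATF6B (0.32) and HERPUD1 (0.17) turned positive. Leaving out libraries gave 1 to 2 higher, DDIT3 being added without either control, and 4 to 5 lower. With the replicate block the calls were 1 higher and 4 lower. Same-numbered NLS libraries did not deviate together (r = -0.00609). With 2 libraries in each arm this cannot settle whether they share a culture or batch. No paired analysis was possible because the OMM arms share a single number; the joint fit of the difference had no block either.

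OMM calls, 0 in the main test, became 1 with DESeq2 and 1 without a filter, and 0 to 1 without single libraries. HERPUD1 at OMM turned to 0.0693 with library size alone. Over the libraries left out at OMM it ranged from -0.55 to 0.39, turning positive without control library 4 (0.25) or labelled library 2. DDIT3 ranged from -2.34 to 0.48, ERN1 from -0.18 to 0.64 and EIF2AK3 from -0.71 to 1.34, each changing sign without labelled library 3. The gap between sensor and effector medians ranged from -0.66 to 1.11, and at NLS from 0.66 to 0.81.

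The 2 calls of the difference became 0 with library size alone, 0 with RLE factors and 0 to 4 without single libraries. HERPUD1's difference was -0.0622 with DESeq2, -0.10 with library size alone and -0.0619 with RLE factors, and ranged from -0.18 to 0.73 without single libraries. That of EIF2AK3 ranged from -0.90 to 1.13; both were negative without labelled OMM library 3. The median member level in the NLS controls was 58.0 CPM and 60.3 CPM without mtDNA-encoded genes. Over all genes, NLS calls were 212 higher and 2180 lower in the joint fit and 9122 and 3351 with library size alone. OMM calls were 949 higher and 888 lower with DESeq2 and 1 and 0 without robust estimation. With 2 libraries a group, the OMM spread limits what can be called there. Other causes were not tested.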
